A study of Mus musculus with 9 samples.

Results

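Chemokines are small secreted proteins that direct the movement of leukocytes, and their receptors are G protein-coupled receptors on the cells that follow them. The genes described here are the 55 of 37203 gene rows whose symbol is a chemokine or chemokine receptor name with a number (Ccl, Cxcl, Cx3cl, Xcl, Ccr, Cxcr, Cx3cr, Xcr and Ackr), 34 ligands and 21 receptors. They were chosen by name and not by a measured value. Liver RNA of Wistar rats was sequenced in 9 libraries of 3 groups, with 3 libraries each. The schisandrin B group had CCl4, a solvent that injures hepatocytes, at 2 mL/kg of a 50% mixture with olive oil 3 times a week for 8 weeks, and daily schisandrin B, a lignan of Schisandra fruit, through the last 4 of these weeks. The study names daily doses of 25 and 50 mg/kg without saying which of them these 3 libraries had. The fibrosis group had the same CCl4 course alone. The normal group had olive oil in place of CCl4. All animals are described as male. Body weight is given by the labels and age is not. Nothing states that each library is its own animal, so every SD and p-value here reflects library-to-library spread, which may be technical.

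Liver uses these proteins in several ways. Ccl2 draws monocytes out of the blood, Cxcl1 and Cxcl2 draw neutrophils through Cxcr2, and the interferon-induced Cxcl9, Cxcl10 and Cxcl11 draw T and NK cells through Cxcr3. Cxcl12 is made without inflammation and holds Cxcr4-bearing cells in place. Ccl19 and Ccl21 guide lymphocytes and dendritic cells through Ccr7. Atypical receptors (Ackr2, Ackr4 and Cxcr7, whose current name is Ackr3) take up chemokines without the usual G protein signal.

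Each library held between 10320299 and 16255167 counts. Values are given as CPM, a count scaled to a common library size with TMM factors, and they are compared between libraries and not between genes, because gene lengths were not used. A floor of 3 counts is 0.176 to 0.287 CPM per library, and floors cover counting error only. Albumin, the main secreted protein of hepatocytes, took 4.18% to 17.1% of the counts in each library, and all 17 listed hepatocyte markers had enough counts to be tested. Fibrosis replicate 1 was least like its group, with a mean correlation of 0.942 across genes with the other fibrosis libraries, against 0.955 to 0.975 for the other 8 libraries. The Y-linked genes Kdm5d and Eif2s3y had 73 to 193 counts in each CCl4 library and 0 in all 3 libraries labelled normal. Sex and treatment therefore cannot be told apart in either comparison with the normal group, and since this holds for all 3 of its libraries no value without them can be given. In bulk RNA fewer cells of a type and less RNA per cell cannot be told apart.

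Of the 55 genes, 31 had enough counts to be tested, 21 had some counts but fewer than the filter on low counts asks, and 3, Ccl20, Ccl26 and Cxcr1, had 0 counts in all 9 libraries, which allows up to 0.287 CPM in any of them. Calls below are edgeR quasi-likelihood tests with a Benjamini-Hochberg adjusted p under 0.05 over all 14581 tested genes, and only called genes are said to rise or fall. Schisandrin B against fibrosis gave 12 calls among the 31 genes, 6 higher and 6 lower, where 47.3% of all tested genes were called (22.5% higher, 24.8% lower). That is 38.7% of the tested members, below the share over all genes. Of the calls, 10 were among the 19 tested ligands (6 higher, 4 lower) and 2 among the 12 tested receptors (both lower). The median change was -0.08 on the log2 scale, against -0.03 over all genes. Fibrosis against normal also gave 12 calls, 5 higher and 7 lower, a share of 38.7% where 48.3% of all genes were called (25.4% higher, 22.9% lower). Here too 10 of the calls were ligands (4 higher, 6 lower) and 2 were receptors (1 in each direction). The median was -0.47, against 0.03. Schisandrin B against normal gave 6 calls, 3 in each direction, a share of 19.4% where 10.5% of all genes were called (5.25% higher, 5.25% lower), with a median of -0.34 against 0. The counts of calls were 7 in the first comparison without schisandrin B replicate 2, and 2 or 3 in the last without any library but normal replicate 3 (5). The groups did not overlap in 14, 14 and 10 of the 31 genes in this order of comparisons, or 45.2%, 45.2% and 32.3%, where the shares over all genes were 56.8%, 55.8% and 38.7%. In all, 15 genes were called in at least 1 comparison and 16 in none. Both comparisons with fibrosis share its 3 libraries, so that opposite calls in them are not independent. The shares of calls over all genes given here are also the background for the counts from gene lists below.

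Scaling by library totals in place of TMM factors moved the median gene by -0.27 in schisandrin B against fibrosis, by 0.43 in fibrosis against normal and by 0.16 in schisandrin B against normal, and upper-quartile factors moved it by 0.13 and -0.10 in the first and second of these. Among the 31 genes, the calls higher and lower in fibrosis against normal were then 7 and 6 with library totals, and 5 and 8 with upper-quartile factors. In schisandrin B against fibrosis they were 6 and 9 with library totals and 7 and 4 with upper-quartile factors. Over all genes the share of calls that were higher was 74.7% with library totals against 52.7% in fibrosis against normal, 32.6% against 47.6% in schisandrin B against fibrosis, and 70.3% against 50.0% in schisandrin B against normal. With upper-quartile factors that share was 47% in fibrosis against normal and 54.8% in schisandrin B against fibrosis. The shares of all genes called under these scalings are not given here, so nothing particular to the 31 genes can be read from their counts.

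**Figure D1:**
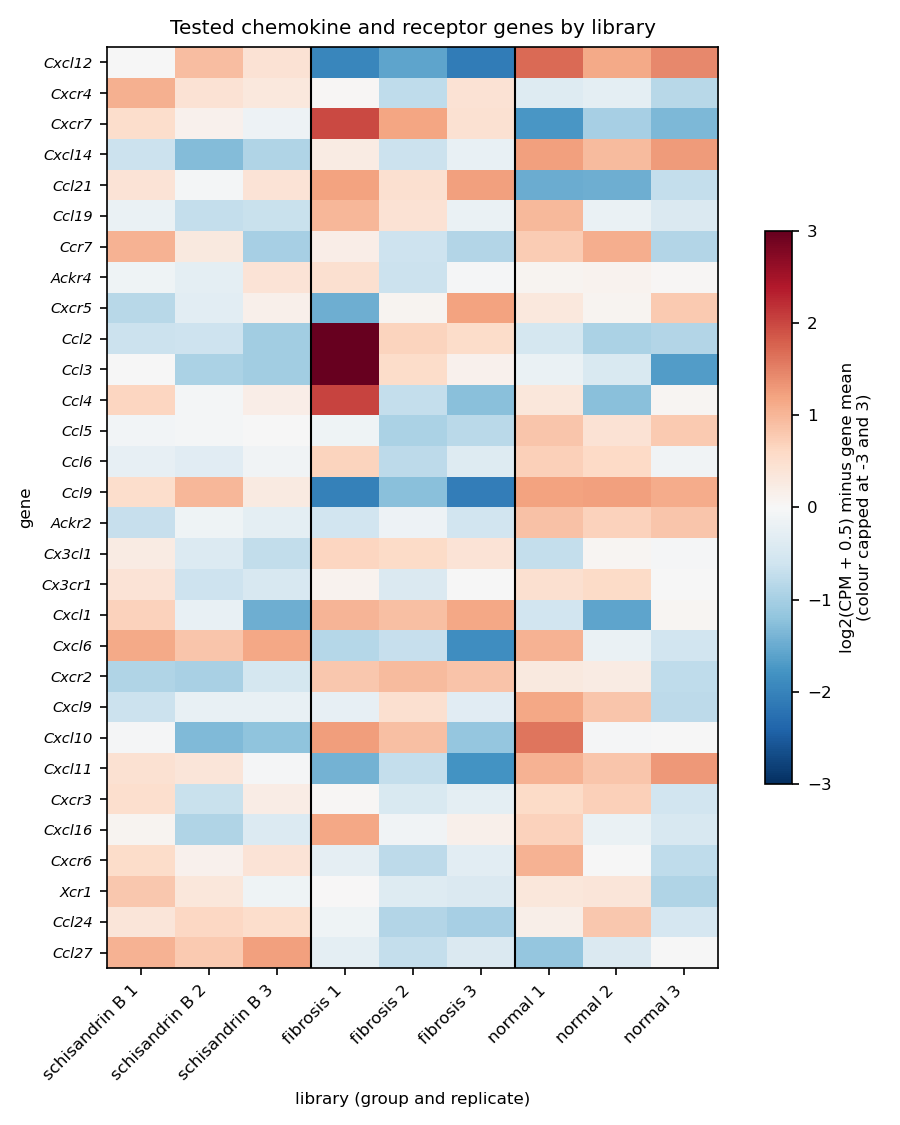
Level of each of 30 tested chemokine and receptor genes (rows) in each of the 9 libraries (columns), as log2(CPM + 0.5) minus the gene's mean over the libraries, with red above and blue below that mean. Cxcl12, Ccl9 and Cxcl11 are blue in the 3 fibrosis libraries, and Ccl2, Ccl3 and Ccl4 are darkest red in fibrosis replicate 1.

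Cxcl12 and Cxcr7, the receptor that takes it up, moved in opposite directions. Cxcl12 stood at 209, 399 and 281 CPM in schisandrin B libraries, at 53.8, 69.2 and 48.7 CPM in fibrosis libraries and at 684, 459 and 574 CPM in normal libraries. The 3 groups did not overlap, and each fibrosis library was far below every other library. It rose by 2.37 ± 0.27 (SE) on the log2 scale in schisandrin B against fibrosis (edgeR adjusted p 5.40e-05), a 5.18-fold difference, and fell by 3.32 ± 0.29 in fibrosis against normal (7.77e-06). Both calls held in each of 14 alternatives. Cxcl12 also fell in schisandrin B against normal, at -0.95 ± 0.26 (0.0405). This last call was lost without any of 5 of the 6 libraries (adjusted p 0.0512 to 0.147), held without schisandrin B replicate 2 (0.0301), and was lost with library totals (0.0526). Summed hepatocyte markers were also lowest in fibrosis, at 239000 to 266000 CPM in schisandrin B, 108000 to 156000 in fibrosis and 276000 to 311000 in normal libraries. Albumin alone averaged 141000, 51000 and 172000 CPM in these groups, a large part of the sums. Of the 17 markers 8 were higher and 1 lower in schisandrin B against fibrosis, and 1 was higher and 9 lower in fibrosis against normal. Sinusoidal endothelial markers summed to 482 to 509, 397 to 535 and 533 to 673 CPM in these groups, with 3 of 12 higher and 1 lower in schisandrin B against fibrosis and 5 lower in fibrosis against normal. None of the markers of these 2 lists was at 0. Their part in the Cxcl12 result was not tested.

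Cxcr7, which scavenges Cxcl11 as well as Cxcl12, stood at 15.2, 11.5 and 9.31 CPM in schisandrin B libraries, at 42.6, 24.4 and 14.6 CPM in fibrosis libraries and at 2.75, 5.01 and 3.81 CPM in normal libraries. Both CCl4 groups lay above all normal libraries and overlapped each other. Cxcr7 rose by 2.80 ± 0.39 in fibrosis against normal (edgeR adjusted p 0.000185), a call that held in each of 14 alternatives, and by 1.63 ± 0.39 in schisandrin B against normal (0.0233). The second of these was lost without schisandrin B replicate 1 (0.0784) or 2 (0.0607) or normal replicate 1 (0.0853) or 3 (0.0836), and with limma voom (0.0576). It fell by 1.18 ± 0.36 in schisandrin B against fibrosis (0.0201). That call was lost without schisandrin B replicate 2 (0.0645), schisandrin B replicate 3 (0.0804) or fibrosis replicate 1 (-0.70 on the log2 scale, adjusted p 0.0649). Cxcr4, the signalling receptor of Cxcl12, averaged 5.42 ± 1.78 CPM in schisandrin B, 3.26 ± 1.45 CPM in fibrosis and 2.20 ± 0.509 CPM in normal libraries (SD, n = 3 each) and was not called in any comparison. All 3 schisandrin B libraries were above all normal libraries for Cxcr4, with a difference of 1.29 ± 0.40 (edgeR adjusted p 0.0601) that DESeq2 (0.0208) and a fit on these 2 groups (0.0165) called.

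Cxcl14, a chemokine made by many epithelia at rest, fell in all 3 comparisons. It stood at 6.21, 3.72 and 5.11 CPM in schisandrin B libraries, at 11.9, 6.21 and 8.46 CPM in fibrosis libraries and at 24.2, 19.8 and 25.0 CPM in normal libraries. All 6 CCl4 libraries were below all normal libraries, and the schisandrin B and fibrosis groups met at 6.21 CPM. It fell by 1.38 ± 0.26 in fibrosis against normal (edgeR adjusted p 0.00129) and by 2.20 ± 0.28 in schisandrin B against normal (0.000636), and both calls held in each of 14 alternatives. The fall of 0.82 ± 0.28 in schisandrin B against fibrosis (0.0283) was lost without schisandrin B replicate 2 (0.119) or 3 (0.0703) or fibrosis replicate 1 (0.0786), with a fit on these 2 groups (0.0629) and with upper-quartile factors (0.055).

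Ccl21, the main chemokine of lymphatic vessels and lymph node T zones, was high in both CCl4 groups. It stood at 14.6, 10.4 and 14.7 CPM in schisandrin B libraries, at 25.8, 15.3 and 26.1 CPM in fibrosis libraries and at 3.52, 3.59 and 6.48 CPM in normal libraries, with no overlap between any 2 groups. It rose by 2.31 ± 0.31 in fibrosis against normal (edgeR adjusted p 0.000107) and by 1.54 ± 0.30 in schisandrin B against normal (0.00879), and both calls held in each of 14 alternatives. It fell by 0.76 ± 0.29 in schisandrin B against fibrosis (0.0451). That call was lost without any of 5 of the 6 libraries (0.0777 to 0.165) and with upper-quartile factors (0.0874), and it held without fibrosis replicate 2 (0.0155). Ccl19, the other Ccr7 ligand, averaged 0.671 ± 0.247 CPM in schisandrin B, 1.84 ± 0.951 CPM in fibrosis and 1.48 ± 1.11 CPM in normal libraries (SD, n = 3 each), and no comparison called it. The difference of -1.44 ± 0.61 in schisandrin B against fibrosis (edgeR adjusted p 0.0728) passed with library totals (0.0371), in a fit on these 2 groups (0.0485) and without fibrosis replicate 3 (0.0379). Ccr7 ranged from 0.183 to 2.29 CPM in schisandrin B, from 0.235 to 1.05 CPM in fibrosis and from 0.243 to 2.37 CPM in normal libraries, with overlap between all groups and no call. Ackr4, which removes Ccl19 and Ccl21, averaged 10.4 ± 2.85, 10.2 ± 4.03 and 10.7 ± 0.245 CPM in schisandrin B, fibrosis and normal libraries (SD, n = 3 each), without a call. Cxcr5, a chemokine receptor of B cells, spanned 0.324 to 4.76 CPM within the fibrosis group. It was called in no comparison, except as lower in schisandrin B against fibrosis without fibrosis replicate 1 (-1.30 on the log2 scale, edgeR adjusted p 0.0458). Its ligand Cxcl13 had 17, 14 and 11 counts over the 3 libraries of the schisandrin B, fibrosis and normal groups and was not tested.

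**Figure D2:**
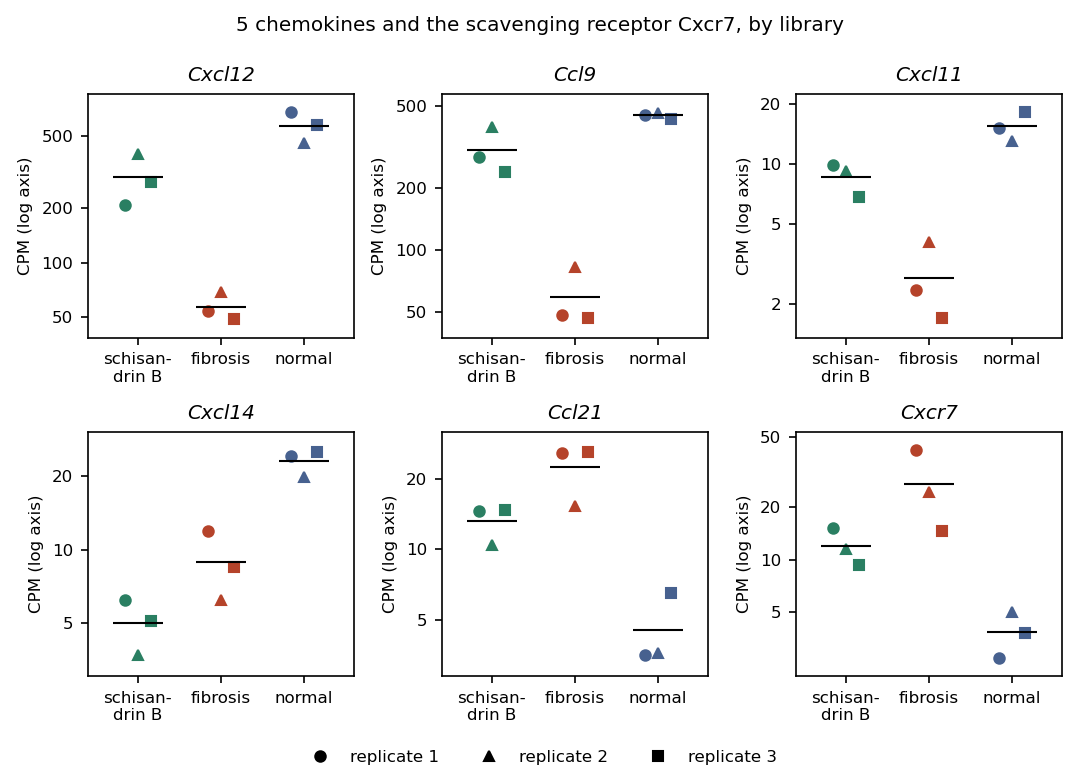
Level in CPM (log axis) of Cxcl12, Ccl9, Cxcl11, Cxcl14, Ccl21 and Cxcr7 in each library, with the symbol giving the replicate and the line the mean of the 3 libraries. Cxcl12, Ccl9 and Cxcl11 are lowest in fibrosis libraries, Ccl21 and Cxcr7 are lowest in normal libraries, and Cxcl14 is highest in normal libraries.

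The CC chemokines of monocytes and T cells did not share a direction. Ccl9, a rodent chemokine that acts on Ccr1 in mice, stood at 284, 396 and 240 CPM in schisandrin B libraries, at 48.4, 82.7 and 46.8 CPM in fibrosis libraries and at 454, 464 and 430 CPM in normal libraries. The groups did not overlap. It rose by 2.37 ± 0.27 in schisandrin B against fibrosis (edgeR adjusted p 5.11e-05) and fell by 2.92 ± 0.28 in fibrosis against normal (1.30e-05), and both calls held in each of 14 alternatives. The difference of -0.55 ± 0.26 between schisandrin B and normal libraries was not called (edgeR adjusted p 0.198), although no libraries overlapped. Ccl6, its near relative among rodent chemokines, was called in no comparison and averaged 71.4 ± 6.02 CPM in schisandrin B, 81.9 ± 45 CPM in fibrosis and 114 ± 32 CPM in normal libraries (SD, n = 3 each). Its fibrosis libraries spread from 48.6 to 133 CPM, highest in replicate 1, and without that library Ccl6 was called lower in fibrosis against normal (-1.01, edgeR adjusted p 0.00425). A fit on the 2 groups called it lower in schisandrin B against normal (-0.66, adjusted p 0.041). Reads of such close relatives can be shared, and how the authors assigned them is not given in the sources used here, so that values of Ccl6 and Ccl9, of Ccl3 and Ccl4 and of Cxcl1, Cxcl2 and Cxcl3 are uncertain.

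Ccl5, which T cells and NK cells release, stood at 8.98, 9.11 and 9.31 CPM in schisandrin B libraries, at 8.58, 4.62 and 5.23 CPM in fibrosis libraries and at 17.2, 12.9 and 16.6 CPM in normal libraries. No 2 groups overlapped. It fell by 1.34 ± 0.25 in fibrosis against normal (edgeR adjusted p 0.00113), in each of 14 alternatives. In schisandrin B against fibrosis the difference of 0.58 ± 0.25 was not called (edgeR adjusted p 0.0822), but it was without fibrosis replicate 1 (0.88, adjusted p 0.00486) and with upper-quartile factors (0.0345). The schisandrin B libraries differed from normal by -0.77 ± 0.25 (edgeR adjusted p 0.0722), which DESeq2 (0.0439) and a fit on these 2 groups (0.0124) called.

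Ccl3, a product of activated macrophages and neutrophils, stood at 1.82, 0.729 and 0.639 CPM in schisandrin B libraries, at 29.3, 2.95 and 2.06 CPM in fibrosis libraries and at 1.55, 1.22 and 0.243 CPM in normal libraries. Every fibrosis library was above every other library, and replicate 1 far above the rest. Ccl3 fell by 3.43 ± 1.08 in schisandrin B against fibrosis (edgeR adjusted p 0.0259) and rose by 3.49 ± 1.07 in fibrosis against normal (0.023). Without fibrosis replicate 1 the changes were -1.25 (0.119) and 1.31 (0.101), neither called. The calls were also lost without schisandrin B replicate 2 (0.0895) or 3 (0.0846) in the first comparison, without normal replicate 2 (0.0587) or 3 (0.0706) in the second, and in both with limma voom (0.136 and 0.111) and with no filter on low counts (0.103 and 0.095). Ccl4, which is induced with Ccl3, had 2.87, 1.60 and 2.01 CPM in schisandrin B libraries, 8.34, 0.832 and 0.411 CPM in fibrosis libraries and 2.23, 0.406 and 1.78 CPM in normal libraries. It was called in no comparison, with -0.55 ± 0.96 in schisandrin B against fibrosis (edgeR adjusted p 0.669). Without fibrosis replicate 1 that direction turned, and Ccl4 was higher in schisandrin B by 1.80 (adjusted p 0.0432). Ccr1, the receptor on monocytes and neutrophils, had 5, 40 and 15 counts over the schisandrin B, fibrosis and normal groups and did not pass the filter. Of its 40 fibrosis counts 24 came from replicate 1. Tested with no filter, Ccr1 was lower in schisandrin B against fibrosis (-2.74 ± 0.87, edgeR adjusted p 0.0203), a call lost without fibrosis replicate 1 (-1.87, adjusted p 0.159) or schisandrin B replicate 3 (0.0803). It was not called in fibrosis against normal (1.30 ± 0.75, edgeR adjusted p 0.228).

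Ackr2, which binds and removes inflammatory CC chemokines such as Ccl2, Ccl3 and Ccl5, was low in both CCl4 groups. It stood at 0.765, 1.39 and 1.19 CPM in schisandrin B libraries, at 0.891, 1.36 and 0.881 CPM in fibrosis libraries and at 3.26, 2.84 and 3.16 CPM in normal libraries. All 6 CCl4 libraries lay below all normal libraries, and the CCl4 groups overlapped, with a difference of 0.11 ± 0.38 between them (edgeR adjusted p 0.839). Ackr2 fell by 1.56 ± 0.36 in fibrosis against normal (0.00382), in each of 14 alternatives, and by 1.45 ± 0.36 in schisandrin B against normal (0.0261), a call lost without any of the 6 libraries (0.055 to 0.1). Ackr1, the Duffy antigen receptor, had 6, 13 and 18 counts in the schisandrin B, fibrosis and normal groups and was not tested.

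Ccl2, the main monocyte chemokine, was the tested member with the largest log2 change in both comparisons with fibrosis. It stood at 0.287, 0.292 and 0.0913 CPM in schisandrin B libraries, at 13.1, 1.44 and 1.29 CPM in fibrosis libraries and at 0.344, 0.135 and 0.162 CPM in normal libraries. Every fibrosis library was above every other library, but 162 of the 203 fibrosis counts came from replicate 1, and the schisandrin B and normal groups held 8 counts each, at 1 to 4 counts a library. The expression of Ccl2 fell by 4.47 ± 1.03 in schisandrin B against fibrosis (edgeR adjusted p 0.00497) and rose by 4.59 ± 1.03 in fibrosis against normal (0.00417). Without fibrosis replicate 1 the changes were -2.55 (0.00551) and 2.66 (0.00408), both still called. Its receptor Ccr2 was not analysed here, because no gene row carried that symbol and it is not among the 55 genes.

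Ccl7 and Ccl12, which share that receptor in mice, and the neutrophil chemokine Cxcl2 did not pass the filter. Ccl7 had 5 counts over the schisandrin B libraries, 34 over the fibrosis libraries and 3 over the normal libraries, and 20 of the 34 came from fibrosis replicate 1. Tested with no filter it was higher in fibrosis against normal (3.31 ± 1.00, edgeR adjusted p 0.0139), a call lost without fibrosis replicate 1 (2.5, adjusted p 0.0966) or normal replicate 1 (0.0565). The difference of -2.47 ± 0.93 in schisandrin B against fibrosis missed the threshold (edgeR adjusted p 0.0514) and was called without schisandrin B replicate 1 (0.0433) or fibrosis replicate 2 (0.0428) or 3 (0.0274). Ccl12 had 3, 30 and 4 counts in schisandrin B, fibrosis and normal groups, and 26 of the 30 came from fibrosis replicate 1. With no filter it was called in schisandrin B against fibrosis (-3.05 ± 1.15, edgeR adjusted p 0.0542) and in fibrosis against normal (2.79 ± 1.1, 0.0655) only without fibrosis replicate 2 (0.0107 and 0.0138) or 3 (0.0112 and 0.0145). Fibrosis replicate 1 held the highest level of 15 of the 52 members with any count, among them Ccl2, Ccl3, Ccl4, Ccl7, Ccl12, Ccl17, Ccl22, Cxcl2, Ccr1 and Cxcr7. The highest number for another library was 10, in normal replicate 1. The matching count over all genes is not given here, so nothing particular to these genes can be read from it. The summed monocyte and macrophage markers were likewise highest among fibrosis libraries in replicate 1, at 3020 CPM against 1450 and 1830 CPM in the other two. They summed to 1360 to 2040 CPM in schisandrin B libraries and 2060 to 3140 CPM in normal libraries. Of 22 tested markers of that list 0 rose and 1 fell in schisandrin B against fibrosis, and 3 rose and 3 fell in fibrosis against normal. The called marker in the first was Cd14, the lipopolysaccharide co-receptor, at -2.14 ± 0.30 (edgeR adjusted p 0.000182). Whether these cells account for the chemokine levels of replicate 1 was not tested.

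Cx3cl1, a membrane-bound chemokine that holds Cx3cr1-bearing monocytes, stood at 2.48, 1.39 and 1.00 CPM in schisandrin B libraries, at 3.40, 3.25 and 2.82 CPM in fibrosis libraries and at 1.03, 2.10 and 1.94 CPM in normal libraries. All fibrosis libraries were above all others, without a call: -0.96 ± 0.40 in schisandrin B against fibrosis (edgeR adjusted p 0.0684) and 0.89 ± 0.40 in fibrosis against normal (0.0849). Library totals called both (0.0308 and 0.0192), and limma voom (0.044) and the fit without schisandrin B replicate 1 (0.0316) called the first. Cx3cr1 averaged 2.30 ± 1.16, 2.41 ± 0.530 and 3.53 ± 0.823 CPM in schisandrin B, fibrosis and normal libraries (SD, n = 3 each), without a call.

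**Figure D3:**
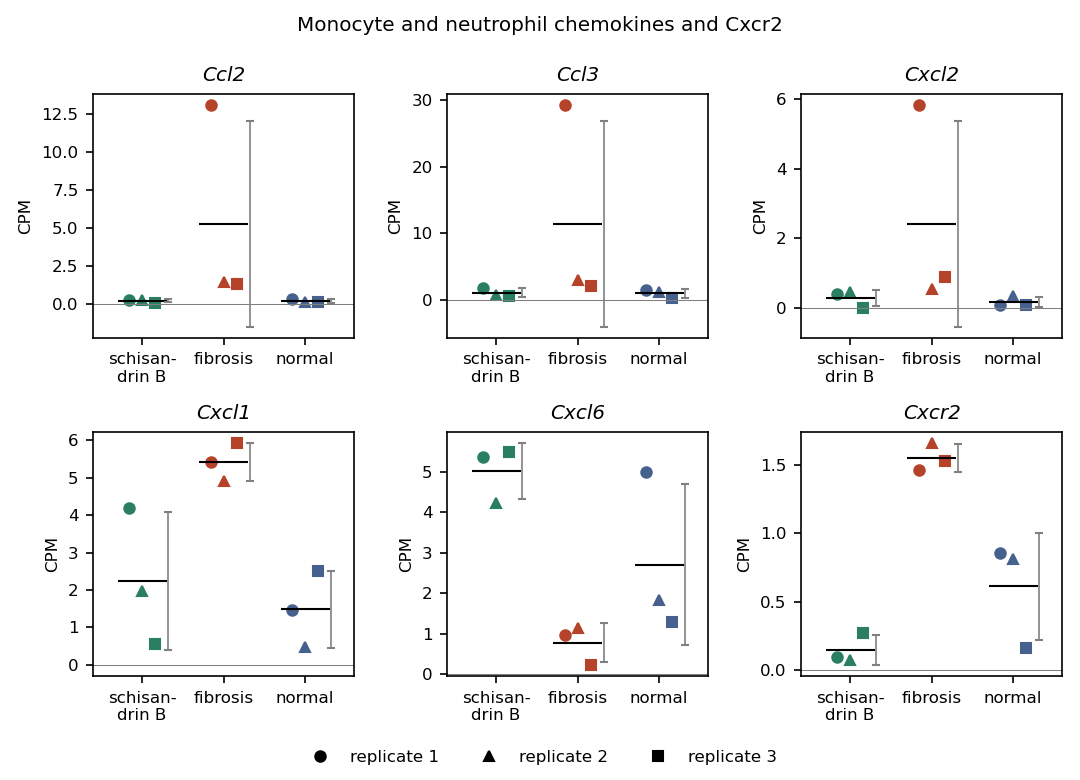
Level in CPM (linear axis) of the monocyte chemokine Ccl2, the macrophage chemokine Ccl3, the neutrophil chemokines Cxcl2, Cxcl1 and Cxcl6 and the receptor Cxcr2 in each library, with the mean as a line and the SD of 3 libraries as a grey bar. Fibrosis replicate 1 carries most of the fibrosis signal of Ccl2, Ccl3 and Cxcl2, while Cxcl1 and Cxcr2 are similar in the 3 fibrosis libraries and Cxcl6 is low in all of them.

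The neutrophil receptor Cxcr2 and its ligands did not move as a block. Cxcr2 stood at 0.0956, 0.0729 and 0.274 CPM in schisandrin B libraries, at 1.46, 1.66 and 1.53 CPM in fibrosis libraries and at 0.859, 0.813 and 0.162 CPM in normal libraries. These are 5, 66 and 24 counts, and the fibrosis libraries lay close together above all others. Cxcr2 fell by 3.35 ± 0.68 in schisandrin B against fibrosis (edgeR adjusted p 0.00186), and this held in each of 13 alternatives that gave a value, at -4.07 without schisandrin B replicate 3 (0.00441). The difference of 1.32 ± 0.54 in fibrosis against normal was not called (edgeR adjusted p 0.0628), except with library totals (0.0207) and limma voom (0.0345). In schisandrin B against normal it was -2.03 ± 0.74 (0.102), called only without normal replicate 3 (-2.47, 0.0485).

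Cxcl1 stood at 4.20, 1.97 and 0.548 CPM in schisandrin B libraries, at 5.42, 4.92 and 5.93 CPM in fibrosis libraries and at 1.46, 0.474 and 2.51 CPM in normal libraries. All fibrosis libraries were above all others. It rose by 1.89 ± 0.63 in fibrosis against normal (edgeR adjusted p 0.0291), a call lost without any of 5 of the 6 libraries (0.0506 to 0.0907) and kept without normal replicate 3 (2.51, 0.0204). In schisandrin B against fibrosis the difference was -1.28 ± 0.61 and not called (edgeR adjusted p 0.109), though limma voom (0.0355) and the fit without schisandrin B replicate 1 (0.0313) called it. Cxcl2 had 10, 94 and 7 counts in the schisandrin B, fibrosis and normal groups, 72 of the 94 in fibrosis replicate 1. Tested with no filter it was higher in fibrosis against normal (3.69 ± 1.11, edgeR adjusted p 0.0283), a call lost without fibrosis replicate 1 (1.99, adjusted p 0.0884) or any 1 of the normal libraries (0.0519 to 0.134). Its -3.06 ± 1.05 in schisandrin B against fibrosis missed the threshold (edgeR adjusted p 0.0538) and was called without fibrosis replicate 2 (0.00415) or 3 (0.0303). Cxcl3 had 3 counts in fibrosis replicate 1, 3 in schisandrin B replicate 2 and 0 in the other 7 libraries.

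Cxcl6, a neutrophil chemokine of the same group in humans, had the opposite pattern. It stood at 5.35, 4.23 and 5.48 CPM in schisandrin B libraries, at 0.971, 1.14 and 0.235 CPM in fibrosis libraries and at 4.98, 1.83 and 1.30 CPM in normal libraries. The fibrosis libraries were below all others. Cxcl6 rose by 2.71 ± 0.59 in schisandrin B against fibrosis (edgeR adjusted p 0.00289), in each of 14 alternatives, and fell by 1.81 ± 0.59 in fibrosis against normal (0.0254). The fall was lost without fibrosis replicate 3 (0.0754) or normal replicate 1 (0.155), with library totals (0.0586) and in a fit on these 2 groups (0.0515).

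The listed neutrophil markers summed to 9.94, 11 and 11.8 CPM in schisandrin B libraries, 79.5, 97.9 and 615 CPM in fibrosis libraries and 32.5, 17.7 and 19.1 CPM in normal libraries. In fibrosis the sum was mostly Lcn2, which injured hepatocytes also make, at 57.7, 80.9 and 592 CPM. Of the 17 listed markers 5 were tested: 4 fell and 1 rose in schisandrin B against fibrosis, and 3 rose and 1 fell in fibrosis against normal. Csf3r, the G-CSF receptor of neutrophils, fell by 2.67 ± 0.51 (edgeR adjusted p 0.00128), and the calprotectin subunit S100a9 fell by 2.46 ± 0.51 (0.00207) in schisandrin B against fibrosis. Retnlg, of the resistin family, was the marker that rose in this comparison (1.21 ± 0.44, edgeR adjusted p 0.0409, lost without schisandrin B replicate 2 or 3 or fibrosis replicate 1 or 2, at 0.0802 to 0.176) and the one that fell in fibrosis against normal (-2.84 ± 0.42, 0.000228). The granule genes Elane, Ctsg, Ltf, Prtn3 and Defa5 had 0 counts in all fibrosis libraries, and Ltf and Prtn3 had 0 in all 9. The part of neutrophil number in the Cxcr2 result was not tested.

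Of the 3 ligands of Cxcr3, Cxcl11 was called and Cxcl9 and Cxcl10 were not, and no test compared the ligands with each other. Cxcl11 stood at 9.94, 9.19 and 6.85 CPM in schisandrin B libraries, at 2.35, 4.09 and 1.70 CPM in fibrosis libraries and at 15.1, 13.0 and 18.1 CPM in normal libraries, with no overlap between any 2 groups. It rose by 1.68 ± 0.32 in schisandrin B against fibrosis (edgeR adjusted p 0.00125) and fell by 2.51 ± 0.32 in fibrosis against normal (8.51e-05), and both calls held in each of 14 alternatives. In schisandrin B against normal it was -0.83 ± 0.30 (edgeR adjusted p 0.0988), called in a fit on these 2 groups (0.0165).

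Cxcl10 stood at 6.98, 2.55 and 2.83 CPM in schisandrin B libraries, at 17.6, 13.9 and 2.94 CPM in fibrosis libraries and at 22.6, 6.98 and 7.13 CPM in normal libraries. The groups overlapped and no difference was called, with -1.48 ± 0.71 in schisandrin B against fibrosis (edgeR adjusted p 0.116). DESeq2 (0.0404) and the fit without fibrosis replicate 3 (-1.96, adjusted p 0.0222) called it lower. Cxcl9 averaged 2.90 ± 0.524 CPM in schisandrin B, 3.90 ± 1.48 CPM in fibrosis and 6.13 ± 3.70 CPM in normal libraries (SD, n = 3 each) without a call, and without normal replicate 3 it was called lower against normal both in fibrosis (-1.07, edgeR adjusted p 0.0318) and in schisandrin B (-1.49, 0.0404). Cxcr3 averaged 1.47 ± 0.739, 1.07 ± 0.279 and 1.82 ± 0.957 CPM in schisandrin B, fibrosis and normal libraries (SD, n = 3 each), without a call.

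The interferon gamma list, 15 of whose 18 genes were tested, also split in schisandrin B against fibrosis, with 2 higher and 2 lower and a median of -0.08. The immunoproteasome subunit Psmb9 rose by 1.74 ± 0.25 (edgeR adjusted p 0.000239) in this comparison, while the kinase Jak2 fell by 0.94 ± 0.21 (0.00317). In fibrosis against normal 0 rose and 5 fell, with a median of -0.53 against 0.03 over all genes. Psmb9 fell by 2.46 ± 0.26 (edgeR adjusted p 2.38e-05) in this comparison. Of 12 tested T and NK cell markers 3 were higher and 0 lower in schisandrin B against fibrosis, where 47.3% of all genes were called. In fibrosis against normal, where 48.3% of all genes were called, 0 of these markers were higher and 9 lower. They summed to 80.2 to 113 CPM in schisandrin B, 58.4 to 107 CPM in fibrosis and 121 to 173 CPM in normal libraries, with Klrb1 at 0 in all. Cd4 alone averaged 67.4, 68.2 and 103 CPM in these groups, a large part of the sums, and was not called in any comparison. The part of these markers in the levels of Ccl5 and Cxcl11 was not tested.

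Cxcl16, a membrane-bound chemokine and lipid scavenger, averaged 11 ± 3.80 CPM in schisandrin B, 20.6 ± 10.5 CPM in fibrosis and 15.3 ± 7.16 CPM in normal libraries (SD, n = 3 each). It was not called, except as lower in schisandrin B against fibrosis with library totals (-1.13, edgeR adjusted p 0.037). Its receptor Cxcr6, found on liver T and NKT cells, had 27, 10 and 26 counts in the schisandrin B, fibrosis and normal groups. All schisandrin B libraries were above all fibrosis libraries for Cxcr6, where 1.70 ± 0.84 was not called (edgeR adjusted p 0.117), and Cxcr6 was called lower in fibrosis against normal without normal replicate 3 (-2.05, 0.042). Xcr1, the receptor of cross-presenting dendritic cells, averaged 1.52 ± 0.645, 0.793 ± 0.225 and 1.09 ± 0.665 CPM in schisandrin B, fibrosis and normal libraries (SD, n = 3 each), without a call. Its ligand Xcl1 had 15, 16 and 25 counts in these groups and was not tested. The list of 12 dendritic cell markers includes Xcr1 and Ccr7 themselves. Of the 12, 1 rose in schisandrin B against fibrosis and 0 were called in either comparison with normal. Clec9a, found on the same cells as Xcr1, was the marker that rose, by 1.14 ± 0.41 (edgeR adjusted p 0.0391). That call was kept without fibrosis replicate 1 (0.0203) and lost without any other of the 6 libraries (0.0537 to 0.129).

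Ccl27 and Ccl24 were the other ligands called higher in schisandrin B against fibrosis. Ccl27, which attracts skin-homing T cells through Ccr10, stood at 2.20, 1.75 and 2.56 CPM in schisandrin B libraries, at 0.567, 0.303 and 0.470 CPM in fibrosis libraries and at 0.0859, 0.474 and 0.810 CPM in normal libraries. All schisandrin B libraries were above all others. It rose by 2.25 ± 0.55 against fibrosis (edgeR adjusted p 0.00585), in each of 14 alternatives, and by 2.21 ± 0.56 against normal (0.028). The second was lost without any of 5 of the 6 libraries (0.0632 to 0.108) and kept without normal replicate 3 (2.84, 0.034). It was not called in fibrosis against normal, at -0.05 ± 0.62 (edgeR adjusted p 0.956). Ccr10 itself had 2, 1 and 6 counts in the schisandrin B, fibrosis and normal groups.

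Ccl24, an eosinophil chemokine, stood at 6.79, 8.17 and 7.67 CPM in schisandrin B libraries, at 4.70, 2.57 and 2.35 CPM in fibrosis libraries and at 5.93, 9.41 and 3.48 CPM in normal libraries. The schisandrin B libraries were above all fibrosis libraries. It rose by 1.24 ± 0.38 (edgeR adjusted p 0.019), a call lost without schisandrin B replicate 2 (0.0568) or fibrosis replicate 2 (0.0617) or 3 (0.066). In fibrosis against normal it was -0.98 ± 0.38 (edgeR adjusted p 0.0512), which became a call without fibrosis replicate 1 (0.0108) or normal replicate 3 (0.0165), with DESeq2 size factors (0.0483), upper-quartile factors (0.031) and no filter (0.0486), and with DESeq2 (0.031). The eosinophil receptor Ccr3 had 2, 1 and 12 counts in the schisandrin B, fibrosis and normal groups, 10 of the 12 in normal replicate 3, and Ccl11, another eosinophil chemokine, had 0, 1 and 5.

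Ccl17 and Ccl22 bind Ccr4, a chemokine receptor of T cells, and had most of their counts in fibrosis replicates 1 and 2. Ccl17 had 1, 18 and 2 counts in the schisandrin B, fibrosis and normal groups, and 13 of the 18 came from fibrosis replicate 1. Ccl22 had 8, 48 and 9 counts, and fibrosis replicates 1, 2 and 3 held 25, 19 and 4 of the 48. At 0.235 CPM, fibrosis replicate 3 was below schisandrin B replicate 1 (0.573 CPM) and normal replicate 1 (0.515 CPM) for Ccl22. Neither was called with no filter, where edgeR gave adjusted p of 0.0578 and 0.0827 in schisandrin B against fibrosis and of 0.0914 and 0.0772 in fibrosis against normal. Without fibrosis replicate 3 both were called in both comparisons (0.0212 and 0.0123, and 0.0363 and 0.0112). Ccl17 was also called in the first without schisandrin B replicate 3 (0.0462) or fibrosis replicate 2 (0.0476) and in the second without normal replicate 3 (0.0381), and Ccl22 in the first without schisandrin B replicate 1 (0.0223) and in the second without normal replicate 1 (0.0423). Ccr6, the receptor of Ccl20, had 11, 29 and 21 counts in the schisandrin B, fibrosis and normal groups, and Ccl20 itself had none. Ccl1, Ccl25, Ccl28, Ccr4, Ccr8, Ccr9 and Cxcl17, the other untested genes with any count, were below 1 CPM in all 9 libraries.

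**Figure D4:**
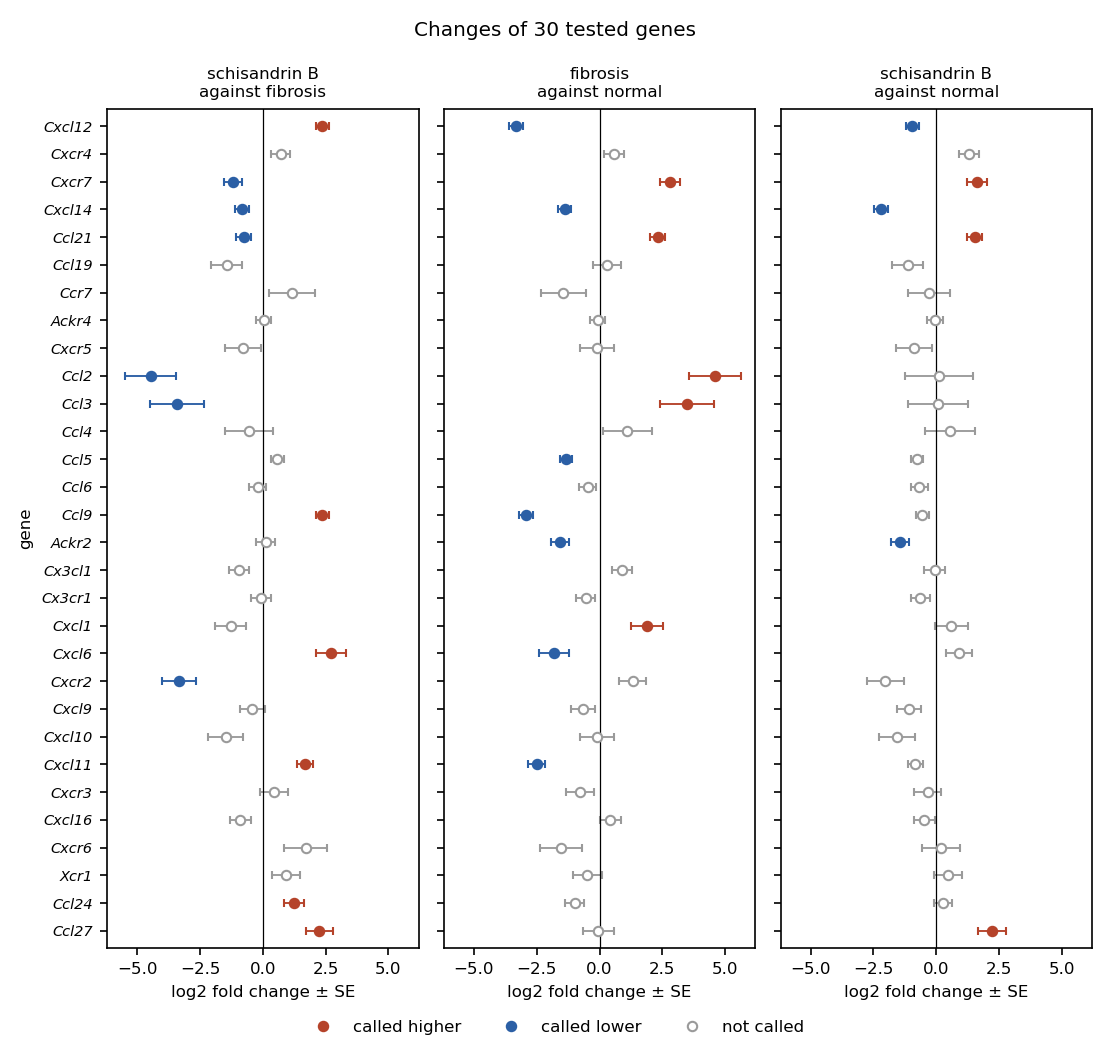
Log2 fold change with its SE for 30 tested genes in schisandrin B against fibrosis, fibrosis against normal and schisandrin B against normal, with filled points for called genes. Ccl2 lies farthest out in the first and second panels, at -4.47 and 4.59, and Cxcl12, Ccl9, Cxcl11 and Cxcl6 are called higher in the first and lower in the second.

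Genes around the chemokines were counted from lists. NF-kappaB and AP-1 switch on Ccl2, Ccl3, Cxcl1 and Cxcl2. Of 25 tested genes of their subunits, upstream signals, inhibitors and targets, 1 rose and 15 fell in schisandrin B against fibrosis, with a median of -1.04 against -0.03 over all genes. In fibrosis against normal 14 rose and 1 fell, with a median of 0.68 against 0.03. The NF-kappaB subunit Nfkb2 averaged 11.4 ± 2.42 CPM in schisandrin B and 38.1 ± 2.73 CPM in fibrosis libraries (SD, n = 3 each), a fall of 1.74 ± 0.20 (edgeR adjusted p 5.53e-05), and Rela fell by 1.33 ± 0.16 (5.65e-05). Fosl1, a subunit of AP-1, averaged only 0.054 ± 0.0935 CPM in normal libraries (SD, n = 3). It had 0 counts in all schisandrin B libraries, against a mean of 89.5 ± 58.6 CPM in fibrosis libraries (SD, n = 3, edgeR adjusted p 5.19e-05). Among the 15 were also Irak3 (-2.87) and Zc3h12a (-1.18), which restrain this signalling, and the target Icam1 (-1.97). Myd88, an adaptor of the upstream receptors, was the gene that rose, by 0.55 ± 0.18 (edgeR adjusted p 0.0246), a call lost without schisandrin B replicate 1 (0.057) or 3 (0.0892) or fibrosis replicate 1 (0.0547). The cytokine Il1b fell by 1.04 ± 0.39 (edgeR adjusted p 0.0482), a call lost without any schisandrin B library (0.105 to 0.129) or fibrosis replicate 1 (-0.31 on the log2 scale, adjusted p 0.24). It was not called in fibrosis against normal (0.62 ± 0.38, edgeR adjusted p 0.207). In schisandrin B against normal 1 of the 25 genes rose and 1 fell, with a median of -0.13 against 0. Fosl1 was not called there (edgeR adjusted p 0.606).

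Of 30 tested genes of signalling behind the receptors 1 rose and 8 fell in schisandrin B against fibrosis, and 8 rose and 7 fell in fibrosis against normal. Over all tested genes 22.5% rose and 24.8% fell in the first comparison, and 25.4% rose and 22.9% fell in the second. Adrbk1, the kinase that desensitises chemokine receptors (GRK2), fell by 1.35 ± 0.17 in the first (edgeR adjusted p 9.52e-05) and rose by 1.01 ± 0.17 in the second (0.000529). Dock2, the Rac activator that leukocytes need for migration, averaged 9.25 ± 2.89 CPM in schisandrin B, 8.66 ± 1.00 CPM in fibrosis and 33.5 ± 5.05 CPM in normal libraries (SD, n = 3 each), and fell against normal by 1.85 ± 0.24 in schisandrin B (0.000791) and by 1.95 ± 0.24 in fibrosis (7.15e-05). Of 23 tested adhesion and glycosaminoglycan genes 3 rose and 6 fell in schisandrin B against fibrosis, and 5 rose and 5 fell in fibrosis against normal. Icam1, the endothelial ligand of leukocyte integrins, fell by 1.97 ± 0.23 in the first (edgeR adjusted p 5.97e-05), Selp, which starts leukocyte rolling, fell by 3.30 ± 0.61 (0.001), and Sdc2, a heparan sulfate proteoglycan, rose by 1.56 ± 0.20 (0.000102).

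Of 20 related genes outside the name pattern 10 were tested, and 3 rose and 0 fell in schisandrin B against fibrosis, while 1 rose and 3 fell in fibrosis against normal. Dpp4, the protease that trims and inactivates Cxcl12 and the Cxcr3 ligands, averaged 128 ± 15.4 CPM in schisandrin B, 35.7 ± 6.13 CPM in fibrosis and 147 ± 29.8 CPM in normal libraries (SD, n = 3 each). It rose by 1.84 ± 0.21 in schisandrin B against fibrosis (edgeR adjusted p 4.83e-05) and fell by 2.05 ± 0.21 in fibrosis against normal (2.04e-05). Rarres2, the precursor of the attractant chemerin, rose by 1.21 ± 0.20 (0.000619) and fell by 1.02 ± 0.20 (0.00161) in the same comparisons. Pf4, the platelet chemokine Cxcl4, was higher against normal both in schisandrin B (1.42 ± 0.41, edgeR adjusted p 0.0495) and in fibrosis (1.1 ± 0.41, 0.0463), but the first call was lost without any library but schisandrin B replicate 3 (0.119 to 0.191) and the second without any but fibrosis replicate 1 (0.0536 to 0.177).

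Among markers of the remaining cell types, stellate cell and fibroblast genes split, with 6 of 17 higher and 5 lower in schisandrin B against fibrosis and 7 higher and 2 lower in fibrosis against normal. They summed to 543 to 743, 364 to 600 and 316 to 472 CPM in schisandrin B, fibrosis and normal libraries. Cholangiocyte markers had 0 of 9 higher and 4 lower in schisandrin B against fibrosis and 3 higher and 1 lower in fibrosis against normal, and B and plasma cell markers had 2 of 6 higher and 0 lower, and 0 higher and 3 lower. Their part in the chemokine results was not tested.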

How the data were processed

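The authors deposited a table of read counts per gene, whole and not normalized, for 9 rat liver libraries made with an Ion Proton protocol, per the labels. Neither aligner nor counting tool is given in the sources used here. Mouse and its GRCm38 build are named by the labels, while the strain label and the symbols are rat (1317 rows start with RGD, 1687 with Olr), so no reference coordinates or sequences were used. Libraries were grouped by source name. In R 4.3.3, edgeR 4.0.16 fitted a robust quasi-likelihood model with TMM factors to all 9 libraries after filterByExpr (14581 of 37203 genes), with an F test per pair of groups. SE is the log2 fold change divided by the root of F. No batch is labelled. The fit was tested on simulated data. Alternatives were DESeq2 1.42.0 size factors and test, limma 3.58.1 voom, library totals, upper-quartile factors, other filters, fits on 2 groups and leaving out each library, which for genes tested with no filter and for listed genes was chosen after seeing the data. Members and gene lists were chosen with earlier results of these data known. Values per library are given for called members with a mean of at least 1 CPM in a group. Set ligand and receptor pairs are described whether called or not, some only by mean and SD, range or counts. Up to 3 called genes with the lowest adjusted p are named per list. Beyond these, Il1b, Myd88, Irak3, Zc3h12a, Pf4 in fibrosis against normal and Retnlg in schisandrin B against fibrosis were named after their values were seen. Results of 1 member and 1 listed gene are not reported here, though both stay in the counts. Figures used Python 3.11.15 and matplotlib 3.10.9.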

Additional observations from a re-analysis of the deposited data

How the results depend on the processing

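No paired analysis was possible because the replicate numbers follow the order of deposit. Of 30 called pairs of a gene and a comparison, 18 were called in every alternative that gave a value. Over the left-out libraries the members called ranged from 7 to 14 in schisandrin B against fibrosis (12 with all), lowest without schisandrin B replicate 2, from 10 to 14 in fibrosis against normal (12) and from 2 to 5 in schisandrin B against normal (6), where it was 2 or 3 without any library but normal replicate 3. All genes called ranged from 5669 to 7022, from 6045 to 7253 and from 702 to 1004 in the same order (6895, 7041 and 1531 with all). The fits on the 2 groups alone called 10 members and 2951 genes in schisandrin B against normal. With no filter 52 members were tested and 12, 14 and 6 called. The shares of all genes called with no filter are not given here, so nothing particular to these genes can be read from these counts. Ccl4 in schisandrin B against fibrosis reversed to 1.80 on the log2 scale without fibrosis replicate 1, where its counts were 103, against 11 and 7 in the others. The cause of the other shifts was not tested. Members under about 1 CPM rest on few counts, and their differences were not detectable at this depth unless large.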
